A study of Mus musculus with 4 samples.

Results

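The transcriptome of mouse oocytes that matured without drug was compared with that of the oocytes from which maturation starts. The comparison sets 1 library of MII oocytes, cultured for 12 h with no tubastatin A (TubA, an inhibitor of the deacetylase HDAC6), against 1 library of germinal vesicle (GV) oocytes taken at 0 h. Its members are all 21957 genes of the deposited expression table, and it uses 2 of the 4 libraries of the study. The other two libraries, TubA-10 and TubA-20, come from oocytes cultured for 12 h with 10 or 20 μM TubA, and their values are printed beside those of MII. Every change below is the log2 ratio of FPKM + 1 in MII over FPKM + 1 in GV, where FPKM is fragments per kilobase of transcript, scaled to the mapped fragments of a library.

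All oocytes came from B6D2F1 females (C57BL/6 x DBA hybrids) of 6 to 8 weeks that were primed with PMSG, and they were freed of cumulus cells and kept in M16 medium. By the study's methods each library holds RNA of a pool of 100 oocytes (its discussion speaks of single oocytes), the MII pool holds only oocytes that had extruded a polar body, and mRNA was selected with oligo(dT). The title of the MII library calls it an embryo, while the methods describe oocytes matured in culture. The titles of the TubA libraries give 10 and 20 μM, while their treatment fields give other doses, and the doses of the titles are used here. With 1 pooled library a condition there is no spread between replicates, so no value below has a p-value and no difference can be set against biological or technical error.

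FPKM are relative to the total of a library, and a longer poly(A) tail and more mRNA cannot be told apart after oligo(dT) selection. The depth, judged from the step between the lowest FPKM values, was about 1.62 times that of GV in MII (TubA-10 1.67 times, TubA-20 0.895 times). These are estimates, and the read totals that the study states put TubA-20 slightly above GV. The libraries were oocyte libraries by their markers. All 12 oocyte markers were at 12.4 FPKM or more in every library, 8 blood markers stayed at or below 0.0779 FPKM and 8 markers of stroma and theca at or below 0.556. Of 18 cumulus and granulosa markers, 4 reached 1 FPKM in GV and 4 in MII, their summed level was 30.5 FPKM in GV and 27.4 in MII (TubA-10 24.1, TubA-20 30.9), and the defining marker *Foxl2* was listed at 0 in all 4 libraries, as were some genes that oocytes use, so this 0 is not read as absence. The sum rested largely on *Nr5a2* (9.23 FPKM in GV, 10.1 in MII) and *Cyp19a1* (a change of 0.43), so it can hide falls of other markers. *Inha*, the inhibin alpha subunit, was the marker that differed most. It had 7.5 FPKM in GV and 0.314 in MII, with 0.31 at 10 μM and 0.239 at 20 μM TubA. Markers below 1 FPKM in GV went both ways. *Amhr2* changed by -0.89, *Inhba* by -0.56 and *Hsd3b1* by -0.46, while *Kitl* changed by 0.94, *Ptx3* by 0.64 and *Tnfaip6* by 0.42. The part of cumulus RNA in the changes below was not tested.

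A GV oocyte is held in prophase of meiosis I and has filled its cytoplasm with maternal mRNA. Its chromatin is nearly silent by then, so during maturation the mRNA pool is reshaped without new transcription: some stored mRNAs gain poly(A) tail and are translated, guided by cytoplasmic polyadenylation elements (CPE) near the 3′ end that CPEB1 binds, and many others lose their tails and decay. The MII oocyte then waits at metaphase II for fertilisation.

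From GV to MII, 669 genes were more than 2-fold higher (3.05% of all genes) and 1832 more than 2-fold lower (8.34%). Among the 7685 genes with at least 5 FPKM in GV or MII, 635 were more than 2-fold higher (8.26%) and 1596 more than 2-fold lower (20.8%). At any size of change 53.4% of these genes were above and 46.6% below their GV level, and their median change was 0.11. Over all genes, many of them near 0, these shares were 36.5% and 37.2%. Among the genes with at least 5 FPKM the 5th percentile of the change was -1.95 and the 95th was 1.09. Past 4-fold 345 of these genes were lower and 6 higher. The balance of the counts moved with the scaling of the libraries. With equal FPKM sums 1125 genes were higher and 1618 lower, and with equal *Gapdh*, a glycolytic enzyme used as a reference gene (52.6 FPKM in GV and 44.9 in MII), 1525 were higher and 1466 lower. These scalings moved the median of the 9663 genes at 1 FPKM or more on both sides up by 0.11 and 0.19.

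**Figure D1:**
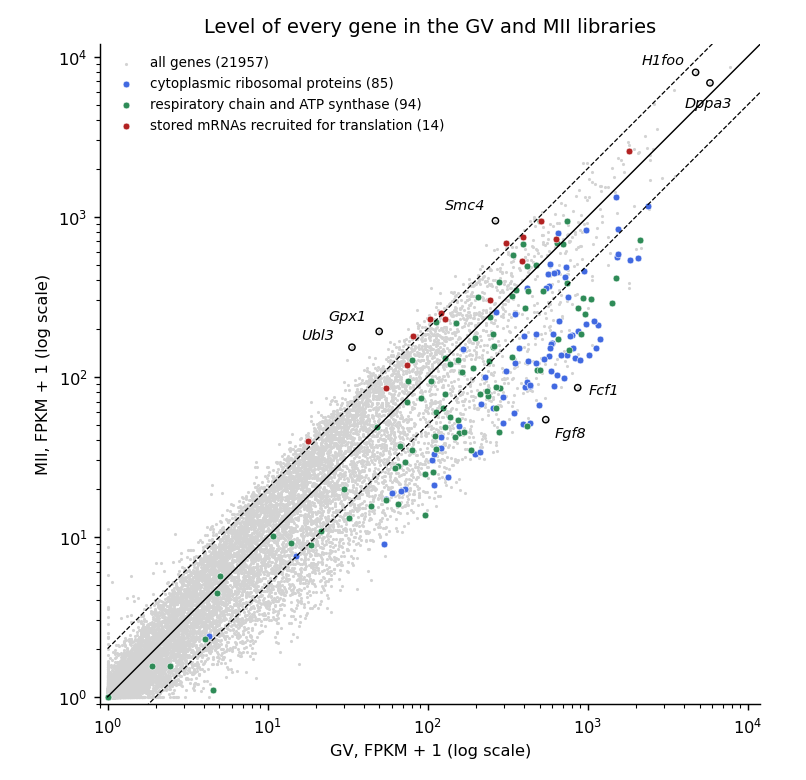
Level of every gene in GV (x axis) and MII (y axis), as FPKM + 1 on log scales, with the line of equal level and dashed lines at 2-fold. The cytoplasmic ribosomal protein genes lie mostly under the lower dashed line (66 of 85), and all 14 stored mRNAs lie above the line of equal level.

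The largest decreases among genes with at least 10 FPKM in GV or MII ran from -2.98 (*Emg1*) to -3.34 (*Fgf8*) for the 10 genes furthest down. *Fgf8*, a secreted fibroblast growth factor by which the oocyte signals to cumulus cells (chr19:45736798-45742915, minus strand, GRCm38), had a GV level of 546 FPKM against 52.9 in MII, beside 66.3 for TubA-10 and 17.8 for TubA-20. Its MII level was 10.3-fold below GV (log2 -3.34), and all 3 cultured libraries lay far below GV. *Fcf1*, a factor of small ribosomal subunit processing, had 865 FPKM at the GV stage and 84.4 at MII (TubA-10 116, TubA-20 27.8), a change of -3.34. *Emg1*, a methyltransferase of 18S rRNA, had 679 FPKM in GV and 85.4 in MII, with 155 at 10 μM and 34.9 at 20 μM TubA, a change of -2.98. *Pop5*, a subunit of RNase P and RNase MRP, which process tRNA and rRNA precursors, had a GV level of 272 FPKM against 33.5 in MII, beside 46 for TubA-10 and 20.9 for TubA-20, a change of -2.98. In each of these genes GV was the highest library and TubA-20 the lowest.

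*Ndufb7*, a subunit of respiratory complex I, had 419 FPKM at the GV stage and 47.9 at MII (TubA-10 53.5, TubA-20 16.3), a change of -3.10. *Rpl24*, a protein of the large ribosomal subunit, had 434 FPKM in GV and 50.2 in MII, with 62.4 at 10 μM and 32.8 at 20 μM TubA, a change of -3.09, and its gene overlaps the locus *Gm28037* on the same strand. *Ppil3*, a cyclophilin family member, had a GV level of 170.3 FPKM against 17.7 in MII, beside 26.4 for TubA-10 and 5.69 for TubA-20, a change of -3.20. The 3 genes kept the same order of libraries, with MII between GV and TubA-20. *Ccdc124*, a ribosome-associated protein, had 157 FPKM at the GV stage and 18.5 at MII (TubA-10 18.7, TubA-20 9.34), a change of -3.02. *Zfp414*, a zinc finger gene that overlaps *Gm20507* on its strand, had 43.3 FPKM in GV and 4.36 in MII, with 9.39 at 10 μM and 4.19 at 20 μM TubA, a change of -3.05. *Hist1h4h*, a histone H4 gene, had a GV level of 14.7 FPKM against 0.594 in MII, beside 0.595 for TubA-10 and 1.14 for TubA-20, a change of -3.30. All 3 cultured libraries were near 1 FPKM or below.

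Of the 10 largest increases 9 lay between 1.78 (*Arel1*) and 2.22 (*Ptp4a1*), below the size of the 10 largest decreases, while *Rsc1a1*, with a GV value near 0, had the largest change of any gene. *Smc4*, a core subunit of condensin, which compacts chromosomes (chr3:69004738-69034623, plus strand), had 264 FPKM at the GV stage and 942 at MII (TubA-10 692, TubA-20 693), a 3.57-fold higher level in MII (log2 1.83). *Gpx1*, the cytosolic glutathione peroxidase, had 48.8 FPKM in GV and 191 in MII, with 89.7 at 10 μM and 119.6 at 20 μM TubA, a change of 1.95. *Ubl3*, a membrane-anchored ubiquitin-like protein, had a GV level of 32.7 FPKM against 152 in MII, beside 58.5 for TubA-10 and 69.7 for TubA-20, a change of 2.18. MII was the highest library for each of these genes, and both TubA libraries lay between GV and MII.

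*Lyrm4*, a factor of iron-sulfur cluster assembly whose locus overlaps several others, had 30.5 FPKM at the GV stage and 126 at MII (TubA-10 39.7, TubA-20 68.9), a change of 2.01. *Gtf2a1*, a subunit of the general transcription factor TFIIA, had 17.7 FPKM in GV and 68.9 in MII, with 36.8 at 10 μM and 64.4 at 20 μM TubA, a change of 1.90. *Ptp4a1*, a small protein tyrosine phosphatase, had a GV level of 3.51 FPKM against 20 in MII, beside 18.4 for TubA-10 and 8.74 for TubA-20, a change of 2.22. GV was again the lowest library in all 3. *Cttnbp2*, a cortactin-binding protein, had 4.17 FPKM at the GV stage and 17.9 at MII (TubA-10 10.5, TubA-20 15.1), a change of 1.87. *Methig1*, which shares its locus with *Higd1c* and *Mettl7a2* on the same strand, had 3.45 FPKM in GV and 17.5 in MII, with 7.19 at 10 μM and 13.5 at 20 μM TubA, a change of 2.06. *Rsc1a1* lies inside *Ddi2* on the same strand, so its reads cannot be told apart from those of *Ddi2*, and it was listed at 0.000143 FPKM in GV and 10.2 in MII, a change of 3.49 whose size rests on the FPKM added to either side. The tenth gene, *Arel1*, an E3 ubiquitin ligase, had a GV level of 7.52 FPKM against 28.3 in MII, beside 12.6 for TubA-10 and 15.3 for TubA-20, a change of 1.78. *Arel1* and *Fcf1* meet at their ends on opposite strands (their annotated ends overlap between 84970897 and 84970900 on chr12), and they moved in opposite directions.

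**Figure D2:**
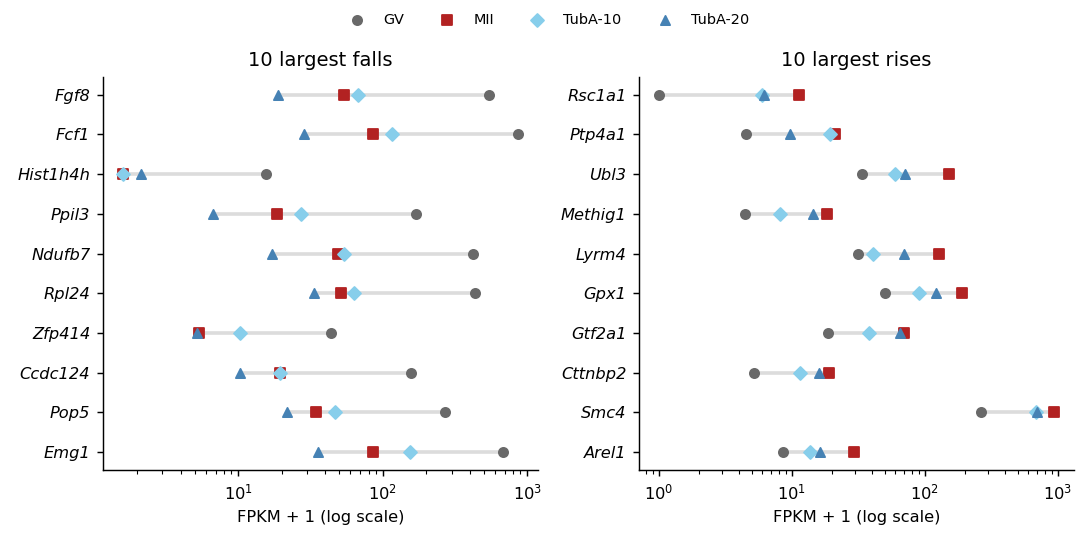
FPKM + 1 (log scale) of the 10 largest decreases (left) and the 10 largest increases (right) from GV to MII, with 1 point for each of the 4 libraries. The genes were chosen on MII against GV, and the TubA libraries, which are set against the same GV library, lie on the same side of GV as MII in both panels.

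The most abundant mRNAs kept high levels. *Dppa3* (Stella), which protects maternal methylation in the zygote, had 5806 FPKM at the GV stage and 6858 at MII (TubA-10 8610.4, TubA-20 7959.7), a change of 0.24. *H1foo*, the oocyte linker histone, had 4724 FPKM in GV and 7977 in MII, with 7352 at 10 μM and 8806 at 20 μM TubA, a change of 0.76. *Elobl*, an elongin B-like gene, was the highest of all in GV with a GV level of 7797 FPKM against 8620.1 in MII, beside 10098 for TubA-10 and 3597 for TubA-20, a change of 0.14. *Ldhb*, a lactate dehydrogenase subunit, had 3481 FPKM at the GV stage and 6148 at MII (TubA-10 6073, TubA-20 6913), a change of 0.82, and *Pttg1*, the securin that holds separase in check, had 2606 FPKM in GV and 5029 in MII, with 3645 at 10 μM and 7145 at 20 μM TubA, a change of 0.95. None of these was past 2-fold, and all were higher in MII. *Pcgf1*, a Polycomb group ring finger protein, had a GV level of 2919.5 FPKM against 1747 in MII, beside 2519 for TubA-10 and 2706 for TubA-20, a change of -0.74, and *Gm813* had 3506 FPKM at the GV stage and 1798 at MII (TubA-10 1881, TubA-20 451), a change of -0.96, the lowest change among the 10 most abundant genes of GV. The 10 highest genes held 6.18% of all FPKM in GV and 8.76% in MII.

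A list of 14 mRNAs that oocytes store and recruit for translation during maturation lay entirely above GV. All 14 were higher in MII, 5 of them more than 2-fold (35.7%, against 8.26% of genes with at least 5 FPKM), and the median change was 0.85 against 0.11. With equal *Gapdh* 8 were more than 2-fold higher. The list was drawn up from textbook knowledge with earlier results of these data known, so its count is a description. *Dcp2*, the decapping enzyme, had 80.3 FPKM in GV and 179.8 in MII, with 181 at 10 μM and 279.6 at 20 μM TubA, a change of 1.15. *Cnot6l*, a catalytic deadenylase of CCR4-NOT, had a GV level of 103 FPKM against 228 in MII, beside 181 for TubA-10 and 296 for TubA-20, a change of 1.14. *Cnot7*, another catalytic deadenylase, had 119.6 FPKM at the GV stage and 248 at MII (TubA-10 206, TubA-20 279), a change of 1.05. Enzymes that strip the cap and the tail from mRNA were therefore among the members that passed 2-fold. *Slbp*, which binds the stem-loop of histone mRNA, had 309.5 FPKM in GV and 687 in MII, with 618 at 10 μM and 552 at 20 μM TubA, a change of 1.15. *Fbxo43* (Emi2), which blocks the anaphase-promoting complex at metaphase II, had a GV level of 16.9 FPKM against 38.9 in MII, beside 30.2 for TubA-10 and 34.3 for TubA-20, a change of 1.15.

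*Ccnb1*, cyclin B1 and the activating partner of CDK1, had 394 FPKM at the GV stage and 749 at MII (TubA-10 626, TubA-20 927), a change of 0.93. *Plat*, tissue plasminogen activator, had 513 FPKM in GV and 942 in MII, with 754 at 10 μM and 949 at 20 μM TubA, a change of 0.88. *Dazl*, an RNA-binding activator of translation in germ cells, had a GV level of 128 FPKM against 228 in MII, beside 228 for TubA-10 and 268 for TubA-20, a change of 0.83. In these members GV was the lowest of the 4 libraries. *Tpx2*, a spindle assembly factor, had a change of 0.67, and *Dcp1a*, the decapping co-activator, one of 0.64. *Btg4*, the adaptor that brings CCR4-NOT to translated maternal mRNA, had 1808 FPKM at the GV stage and 2589 at MII (TubA-10 3031, TubA-20 2536), a change of 0.52. The smallest changes were 0.44 for *Bub1b*, the checkpoint protein BUBR1, 0.29 for *Orc6*, an origin recognition subunit, and 0.19 for *Mos*, the kinase that drives the MAPK cascade of the oocyte. *Mos* was also the only one of the 14 with a cultured library below GV, with 635 FPKM in GV and 726 in MII, with 571 at 10 μM and 1041 at 20 μM TubA. No member turned direction under the 4 scalings that were tried.

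The 3′ ends of these mRNAs were read for the CPE, searched on the transcript strand as TTTTAT or TTTTAAT in the last 100 annotated bases of the principal transcript (GENCODE M21, GRCm38). Of the 14 stored mRNAs 6 held a match there (42.9%, against 21.1% of the 7172 genes with at least 5 FPKM and a 3′ UTR of 100 bases or more). Anywhere in the 3′ UTR, 13 of 14 held one, beside 62.5% of the 7172 genes. *Mos* had none in its 126-base 3′ UTR. The 6 matches are shown because the element is the textbook signal for tail lengthening in maturation. Each line is a window of 30 bases, 5′ to 3′, with the CPE and, where the window reaches it, the AATAAA poly(A) signal in capitals, and these can overlap because TTTTAAT can run into AATAAA.
*Btg4*, chr9:51119797-51119826, plus strand: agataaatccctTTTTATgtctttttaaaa
*Bub1b*, chr2:118641556-118641585, plus strand: cactgtgtaTTTTATAATAAAatagttttt
*Cnot7*, chr8:40493036-40493065, minus strand: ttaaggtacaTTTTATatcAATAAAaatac
*Dcp1a*, chr14:30527010-30527039, plus strand: caaatatatttTTTTAATAAAatttcaaaa
*Orc6*, chr8:85308005-85308034, plus strand: tggttttttaaaTTTTATttcactaaatgt
*Plat*, chr8:22782745-22782774, plus strand: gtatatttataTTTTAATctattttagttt
The start of the printed CPE lay 20 bases from the annotated 3′ end in *Cnot7*, 27 in *Bub1b*, 43 in *Dcp1a*, 55 in *Orc6*, 67 in *Btg4* and 89 in *Plat*. The windows of *Bub1b*, *Cnot7* and *Dcp1a* also held the poly(A) signal. Within the 14, the 6 with a match had a median change of 0.58 and the 8 without one had 1.04, so inside the list a match did not go with the higher values.

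**Figure D3:**
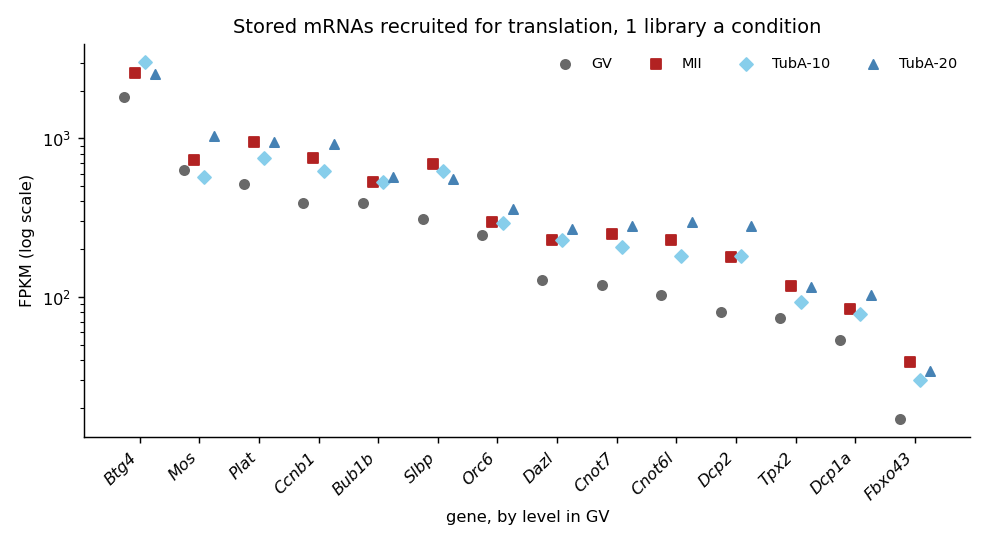
FPKM (log scale) of the 14 stored mRNAs in each of the 4 libraries, ordered by level in GV. The MII point lies above the GV point for all 14 genes, and GV is the lowest point everywhere but in *Mos*.

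Factors that remove tails and caps showed a broader mix. Of 26 genes for deadenylation, decapping and uridylation, 19 were higher in MII and 7 lower, 5 past 2-fold upward and 2 downward, with a median of 0.38 (0.59 over the 21 with at least 5 FPKM). The upward share was 19.2% and the downward one 7.69%, against 8.26% and 20.8% of genes with at least 5 FPKM, and the upward count was 3 with the median change set to 0. The downward count was 1 with a minimum of 5 FPKM. Beside *Dcp2*, *Cnot6l* and *Cnot7*, the exonuclease *Xrn1*, which degrades decapped mRNA, had a GV level of 4.63 FPKM against 11.4 in MII, beside 9.88 for TubA-10 and 12.9 for TubA-20, a change of 1.14. *Tut7*, a terminal uridylyltransferase, had 4.26 FPKM at the GV stage and 10.1 at MII (TubA-10 7.58, TubA-20 10.1), a change of 1.07. *Pan2*, the deadenylase of the PAN2-PAN3 complex, had 24.5 FPKM in GV and 49.6 in MII, with 34.7 at 10 μM and 53.4 at 20 μM TubA, a change of 0.99, and *Ythdf2*, a reader of m6A that promotes decay, had a change of 0.59. These genes of the decay machinery were all above GV in every cultured library. *Cnot10*, a non-catalytic CCR4-NOT subunit, went the other way with a GV level of 23.7 FPKM against 6.4 in MII, beside 5.62 for TubA-10 and 2.74 for TubA-20, a change of -1.74. *Tut4*, the partner enzyme of *Tut7*, had 1.86 FPKM at the GV stage and 0.344 at MII (TubA-10 0.0432, TubA-20 0.505), low in every library, a change of -1.09. Within CCR4-NOT 8 of 11 subunits were higher and 3 lower. Past 2-fold 2 were higher (18.2%) and 1 lower (9.09%), beside the same 8.26% and 20.8%. The 2 higher ones were *Cnot6l* and *Cnot7*, which also stand in the list of stored mRNAs.

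Proteins that store mRNA and bind its tail were divided. Of 22 genes 12 were higher and 10 lower, with a median of 0.15, 2 past 2-fold upward (9.09%) and 3 downward (13.6%), no more than about the 8.26% and 20.8% of genes with at least 5 FPKM. With equal *Gapdh* 5 were past 2-fold upward and 1 downward, and with the median change set to 0 the upward count was 1. *Zar1l*, a zinc finger protein of maternal mRNA storage, had 722 FPKM in GV and 125 in MII, with 159.7 at 10 μM and 59.2 at 20 μM TubA, a 5.78-fold lower level in MII (log2 -2.52), and its locus overlaps *Gm15933* on the same strand. Its relative *Zar1* had a GV level of 1408 FPKM against 2000.3 in MII, beside 2115 for TubA-10 and 1947 for TubA-20, a change of 0.51. The paralogs thus differed, with *Zar1* highest after culture and *Zar1l* highest in GV. *Eif4e*, the cap-binding translation initiation factor, had 124 FPKM at the GV stage and 55.2 at MII (TubA-10 102, TubA-20 52.6), a change of -1.16. *Ybx2* (MSY2), the major mRNP protein of the growing oocyte, had 182 FPKM in GV and 86.2 in MII, with 77.7 at 10 μM and 75.4 at 20 μM TubA, a change of -1.07. *Cpeb1*, the CPE-binding protein, had a GV level of 185 FPKM against 127 in MII, beside 173 for TubA-10 and 83.8 for TubA-20, a change of -0.53, whereas *Cpeb4* had 6.27 FPKM at the GV stage and 14.6 at MII (TubA-10 10.8, TubA-20 15.4), a change of 1.10. *Lsm14a*, a protein of repressed mRNPs, had 136 FPKM in GV and 286 in MII, with 214 at 10 μM and 327 at 20 μM TubA, a change of 1.07. *Papola*, the canonical poly(A) polymerase, had a change of 0.94. The poly(A)-binding proteins *Pabpc1* and *Pabpc1l* had changes of 0.37 and -0.41, and *Pabpc4* one of -0.01, which turned positive under 3 of the 4 scalings.

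Genes that keep the GV oocyte arrested through cAMP were mostly above their GV level. Of 11 genes 10 were higher and 1 lower, with a median of 0.68, and 1 passed 2-fold (9.09%, beside 8.26% of genes with at least 5 FPKM). That count was 0 with the median change set to 0, 2 with equal upper quartiles, 3 with equal FPKM sums or a pseudocount of 0.1 and 4 with equal *Gapdh*. *Prkar2a*, a regulatory subunit of protein kinase A, had a GV level of 12.1 FPKM against 25.3 in MII, beside 17.1 for TubA-10 and 34.6 for TubA-20, a change of 1.0. *Pde3a*, the phosphodiesterase that lowers cAMP when arrest ends, had 9.05 FPKM at the GV stage and 18.8 at MII (TubA-10 14.2, TubA-20 20.6), a change of 0.98. *Gnas*, the stimulatory G protein, had 189 FPKM in GV and 339 in MII, with 238 at 10 μM and 334 at 20 μM TubA, a change of 0.84. *Gpr3*, the receptor that sustains arrest, had a GV level of 16.7 FPKM against 22.8 in MII, beside 28.6 for TubA-10 and 24.1 for TubA-20, a change of 0.42. For these genes GV was the lowest library. *Adcy3*, an adenylyl cyclase at 0.141 FPKM in GV and 0.0797 in MII, was the lower member.

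Maturation promoting factor (MPF) is the CDK1 and cyclin B kinase that drives meiotic resumption, and its genes went both ways. Of 16 genes 9 were higher and 7 lower, with a median of 0.26, none past 2-fold upward and 2 downward (12.5%), beside 8.26% and 20.8% of genes with at least 5 FPKM. The upward count was 1 under the upper-quartile scaling, 2 under the FPKM-sum scaling and 3 under that to *Gapdh*. *Cdk1*, the kinase itself, had 179 FPKM at the GV stage and 44.2 at MII (TubA-10 121, TubA-20 15.5), a 4.06-fold lower level in MII (log2 -2.0). From high to low the libraries stood in the order GV, TubA-10, MII and TubA-20. *Arpp19*, which inhibits the phosphatase PP2A-B55 once phosphorylated, had 598 FPKM in GV and 167 in MII, with 203 at 10 μM and 81.5 at 20 μM TubA, a change of -1.84. Among the cyclins *Ccna2* had a GV level of 47.7 FPKM against 95.4 in MII, beside 66.5 for TubA-10 and 150.2 for TubA-20, a change of 0.98, *Ccnb2* had a change of 0.68, and *Ccnb3* lay below GV with a change of -0.21. *Cks2*, a CDK-binding subunit, had 678 FPKM at the GV stage and 1219 at MII (TubA-10 830, TubA-20 1437), a change of 0.85. *Wee1*, an inhibitory CDK1 kinase, had a change of -0.90, while *Wee2*, its oocyte paralog, had a change of 0.26. *Cdc25b*, the phosphatase that activates CDK1 in the oocyte, had a change of 0.62, and *Cdc25a* one of -0.08, a direction that turned under the FPKM-sum and *Gapdh* scalings.

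In the Mos-MAPK pathway and the arrest at metaphase II, 7 of 11 genes were higher and 4 lower, with a median of 0.19. *Fbxo43* was the 1 member past 2-fold (9.09%, beside 8.26% of genes with at least 5 FPKM). The count was 2 under the FPKM-sum, upper-quartile and *Gapdh* scalings. *Map2k1*, the kinase between MOS and MAPK, had 77.5 FPKM in GV and 150.4 in MII, with 131 at 10 μM and 215 at 20 μM TubA, a change of 0.95. *Mapk3* (ERK1) had a GV level of 130 FPKM against 175 in MII, beside 209.8 for TubA-10 and 123 for TubA-20, a change of 0.43. *Plk1*, the Polo kinase, had a change of 0.32.

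The spindle checkpoint and the anaphase-promoting complex (APC/C), which together time the separation of chromosomes, had 14 of 24 genes higher and 10 lower, with a median of 0.21. Past 2-fold, 1 gene was lower (4.17%, against 20.8% of genes with at least 5 FPKM) and none higher. The lower count was 2 with the median change set to 0 or a pseudocount of 0.01, and 1 gene was higher with equal *Gapdh*. The lower gene was *Anapc2*, the cullin of the APC/C, with 19.7 FPKM at the GV stage and 6.82 at MII (TubA-10 6.84, TubA-20 4.93), a change of -1.40. *Ttk* (MPS1), an upstream checkpoint kinase, had 115 FPKM in GV and 57.7 in MII, with 52.8 at 10 μM and 52.1 at 20 μM TubA, a change of -0.99. *Cdc27*, an APC/C scaffold, had a GV level of 61.9 FPKM against 109 in MII, beside 93.6 for TubA-10 and 117 for TubA-20, a change of 0.81. *Ube2s*, the E2 enzyme that extends ubiquitin chains for the APC/C, had 457 FPKM at the GV stage and 711 at MII (TubA-10 685, TubA-20 1095), a change of 0.63. *Cdc20*, the APC/C activator of metaphase, had a change of 0.62 and *Fzr1* (CDH1), the activator of prophase arrest, one of -0.33.

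Among 16 genes of Aurora kinases, spindle and cohesion, 13 were higher, 2 lower and 1 was listed at 0 in all libraries (*Rec8*), with a median of 0.41 and 2 past 2-fold upward (12.5%, beside 8.26% of genes with at least 5 FPKM), a count of 4 under the FPKM-sum, upper-quartile and *Gapdh* scalings. *Smc3*, a ring subunit of cohesin, had 60.9 FPKM in GV and 160.1 in MII, with 122 at 10 μM and 140.1 at 20 μM TubA, a change of 1.38. *Espl1*, the protease separase, had a GV level of 16.5 FPKM against 37.1 in MII, beside 22.9 for TubA-10 and 35.8 for TubA-20, a change of 1.12. *Sgo2a*, the shugoshin that protects centromeric cohesion, had 12.7 FPKM at the GV stage and 25.8 at MII (TubA-10 20.8, TubA-20 27.7), a change of 0.97. The kinases differed: *Aurka*, the spindle pole kinase, had 123 FPKM in GV and 71.5 in MII, with 101 at 10 μM and 83.9 at 20 μM TubA, a change of -0.78, whereas *Aurkb* had a change of 0.45 and the germ cell kinase *Aurkc* one of 0.10. *Birc5* (survivin), of the same complex, had a change of 0.21.

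Actin moves the meiotic spindle to the cortex. Of 17 genes of the Arp2/3 complex and its partners, 11 were higher and 6 lower, with a median of 0.23, 5 past 2-fold upward (29.4%) and 2 downward, beside 8.26% and 20.8% of all genes with at least 5 FPKM. With the median change set to 0 the upward count was 2. The downward count was 1 with a minimum of 5 FPKM, equal FPKM sums or equal *Gapdh*. *Fmn2*, the formin that builds the actin mesh of the oocyte, had a GV level of 34.1 FPKM against 72.8 in MII, beside 58.5 for TubA-10 and 100.2 for TubA-20, a change of 1.07. *Actr2*, the ARP2 subunit, had 25 FPKM at the GV stage and 57.4 at MII (TubA-10 41.4, TubA-20 52.3), a change of 1.17. *Wasl* (N-WASP), an activator of Arp2/3, had 71 FPKM in GV and 159 in MII, with 125 at 10 μM and 175 at 20 μM TubA, a change of 1.15. *Arpc1b*, a further subunit of the complex, had a GV level of 181 FPKM against 377 in MII, beside 399 for TubA-10 and 598 for TubA-20, a change of 1.06, and *Actb*, beta-actin, had 39.1 FPKM at the GV stage and 81.1 at MII (TubA-10 67.5, TubA-20 129), a change of 1.03. All 5 genes were above GV in every cultured library. *Arpc3*, also a subunit of Arp2/3, had 746 FPKM in GV and 294 in MII, with 371 at 10 μM and 261 at 20 μM TubA, a change of -1.34. *Spire2*, a partner of the formin, had a GV level of 4.57 FPKM against 1.68 in MII, beside 2.87 for TubA-10 and 1.28 for TubA-20, a change of -1.05, while its paralog *Spire1* had a change of 0.62. Subunits of 1 complex thus moved in opposite directions.

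Maternal chromatin and reprogramming factors act on the genome after fertilisation. Of 19 genes 16 were higher and 3 lower, with a median of 0.44, beside 53.4% of genes with at least 5 FPKM that were higher and a median of 0.11. The 2 past 2-fold (10.5%, beside 8.26% of genes with at least 5 FPKM) were no longer so with the median change set to 0. *Setd2*, the H3K36 trimethylase, had 30.7 FPKM at the GV stage and 62.8 at MII (TubA-10 43.4, TubA-20 55.4), a change of 1.01, and *Kdm6b*, an H3K27 demethylase, had 40.7 FPKM in GV and 83.2 in MII, with 60 at 10 μM and 116 at 20 μM TubA, a change of 1.01. *Tet3*, which oxidises methylcytosine in the zygote, had a GV level of 72.9 FPKM against 141 in MII, beside 117 for TubA-10 and 182 for TubA-20, a change of 0.95. *Dnmt1*, the maintenance DNA methyltransferase, had a change of 0.47. The lower members were *Npm2*, a nucleoplasmin that decondenses sperm chromatin (-0.53), *Ago2*, the slicing Argonaute (-0.54), and the imprint protector *Zfp57* (-0.22), which turned positive with equal *Gapdh*.

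The subcortical maternal complex, a protein assembly under the egg membrane, had 2 of 8 genes higher and 6 lower, with a median of -0.11 that turned positive under the FPKM-sum and *Gapdh* scalings. Past 2-fold, 1 of the 8 was lower (12.5%, beside 20.8% of genes with at least 5 FPKM) and none higher. This gene, *Nlrp2*, had 203 FPKM at the GV stage and 61.4 at MII (TubA-10 73.1, TubA-20 71.2), a change of -1.71. *Zbed3* had 1811 FPKM in GV and 2792 in MII, with 2453 at 10 μM and 5213 at 20 μM TubA, a change of 0.62, and *Nlrp5* (MATER) had a GV level of 197 FPKM against 299 in MII, beside 263 for TubA-10 and 238 for TubA-20, a change of 0.60. *Ooep* had a change of -0.70. The complex therefore held members on either side of GV.

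Of 8 zona pellucida and growth factor genes 4 were higher and 4 lower, with a median of -0.04, positive under 3 of the 4 scalings. *Bmp15*, a growth factor that acts on cumulus cells, had 459.9 FPKM at the GV stage and 972 at MII (TubA-10 744, TubA-20 816), a change of 1.08. Its partner *Gdf9* had 1774 FPKM in GV and 2928 in MII, with 2275 at 10 μM and 3822 at 20 μM TubA, a change of 0.72. Set beside *Fgf8*, which was 10.3-fold lower, the secreted factors of the oocyte moved in opposite directions. *Zp3*, the most abundant zona gene, had a GV level of 2454 FPKM against 2256 in MII, beside 2151 for TubA-10 and 973 for TubA-20, a change of -0.12 that turned positive under the FPKM-sum and *Gapdh* scalings. *Zp1* had a change of -0.48 and *Zp2* one of 0.05, which turned negative with the median change set to 0.

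Oocyte transcription factors had 4 of 10 genes higher and 6 lower, with a median of -0.04, again positive under 3 of the 4 scalings. *Figla*, which switches on the zona genes, had 90.5 FPKM at the GV stage and 41.9 at MII (TubA-10 70.2, TubA-20 12.4), a change of -1.09. *Sall4*, a zinc finger factor, had 119 FPKM in GV and 231 in MII, with 169 at 10 μM and 275 at 20 μM TubA, a change of 0.95. *Nobox*, a homeobox factor of the follicle, had a change of -0.17 and turned positive with equal *Gapdh*.

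Of 9 genes for sperm binding and egg calcium 4 were higher and 5 lower, with a median of -0.13 that turned positive with equal *Gapdh*. *Orai1*, the calcium channel of store-operated entry, had a GV level of 78.1 FPKM against 13.7 in MII, beside 17.6 for TubA-10 and 6.42 for TubA-20, a 5.70-fold lower level in MII (log2 -2.43). *Izumo1r* (JUNO), the egg receptor for sperm IZUMO1, had 415 FPKM at the GV stage and 144 at MII (TubA-10 183, TubA-20 87.3), a change of -1.52. *Itpr1*, the IP3 receptor that releases calcium at fertilisation, had 13.9 FPKM in GV and 33.5 in MII, with 19 at 10 μM and 29.1 at 20 μM TubA, a change of 1.21. *Astl* (ovastacin), the protease that hardens the zona, had a GV level of 106 FPKM against 181 in MII, beside 119 for TubA-10 and 237 for TubA-20, a change of 0.77, and *Cd9*, the tetraspanin of sperm fusion, had 242 FPKM at the GV stage and 182 at MII (TubA-10 299, TubA-20 67.5), a change of -0.41.

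Cytoplasmic ribosomal protein mRNAs were the furthest below GV of all 31 lists. Of 85 genes 83 were lower, 1 higher and 1 listed at 0 in all libraries, 66 were more than 2-fold lower (77.6%, against 8.34% of all genes and 20.8% of those with at least 5 FPKM), and the median change was -1.82. The median level was 549.8 FPKM in GV and 135 in MII, beside 155 for TubA-10 and 79.95 for TubA-20. The list held 8.11% of all FPKM in GV and 3.27% in MII. Both subunits took part, with medians of -1.78 over 52 large subunit genes and -1.98 over 31 small subunit genes. *Rpl41*, the most abundant of them in GV, had 2391 FPKM in GV and 1167 in MII, with 1444 at 10 μM and 1573 at 20 μM TubA, a change of -1.03. *Rps27l*, a relative of *Rps27*, was the higher member, with a GV level of 650 FPKM against 789.7 in MII, beside 761 for TubA-10 and 1355 for TubA-20, a change of 0.28. Many ribosomal protein genes have near-identical pseudogene copies, and how the deposited values share reads among copies is uncertain.

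The translation machinery of mitochondria followed. Of 78 mitochondrial ribosomal protein genes 70 were lower and 8 higher, 43 were more than 2-fold lower (55.1%), and the median was -1.18. *Mrps18c* was the furthest below GV, with 473 FPKM at the GV stage and 70.8 at MII (TubA-10 78.2, TubA-20 22.7), a change of -2.72. *Mrps5* was the furthest above, with 36 FPKM in GV and 66.4 in MII, with 72.5 at 10 μM and 113 at 20 μM TubA, a change of 0.86. The median level of the list was 76.9 FPKM in GV and 35.1 in MII. Aminoacyl-tRNA synthetases, which charge tRNAs, had 21 of 38 genes lower and 17 higher, and a median of -0.45. Of the 38, 11 were more than 2-fold lower (28.9%, beside 8.34% of all genes and 20.8% of those with at least 5 FPKM). The median was -0.54 over the 24 synthetases with at least 5 FPKM in GV or MII. *Yars2*, the mitochondrial tyrosyl enzyme, had a GV level of 8.34 FPKM against 2.24 in MII, beside 3.0 for TubA-10 and 1.46 for TubA-20, a change of -1.53. *Qars*, the glutaminyl enzyme and the highest of the list in GV, had 246 FPKM at the GV stage and 103 at MII (TubA-10 119.7, TubA-20 98), a change of -1.25. *Eprs*, the enzyme for glutamate and proline, had 36.3 FPKM in GV and 63.5 in MII, with 51.3 at 10 μM and 73.6 at 20 μM TubA, a change of 0.79.

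Oxidative phosphorylation genes of the nucleus were lower in 76 of 94 cases and higher in 16, with 43 more than 2-fold lower (45.7%, against 20.8% of genes with at least 5 FPKM) and a median of -0.92. The list held 4.47% of all FPKM in GV and 2.77% in MII. By complex, the median was -0.95 over 38 subunits of complex I, -1.37 over 4 of complex II, -0.93 over 9 of complex III, -0.09 over 18 of complex IV and -1.39 over 17 of the ATP synthase, and all 8 assembly factors of complex I were lower (median -0.54). Complex IV had 6 genes higher, 10 lower and 5 of the 10 past 2-fold, and its median was -0.62 over the 13 subunits with at least 5 FPKM in GV or MII. *Atp5e*, a small subunit of the ATP synthase and the highest of the list in GV, had a GV level of 2109.8 FPKM against 709 in MII, beside 873 for TubA-10 and 317 for TubA-20, a change of -1.57. *Uqcrc2*, a core subunit of complex III, had 112 FPKM at the GV stage and 219 at MII (TubA-10 203, TubA-20 305), a change of 0.95.

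Redox enzymes, which hold peroxide and thiols in balance, had 12 of 19 genes lower and 7 higher, 9 more than 2-fold lower (47.4%, against 20.8% of genes with at least 5 FPKM) and 1 higher, with a median of -0.65 (-1.05 over the 17 with at least 5 FPKM). *Sod1*, the cytosolic superoxide dismutase, had 606 FPKM in GV and 224 in MII, with 221 at 10 μM and 121 at 20 μM TubA, a change of -1.43. *Gsta4*, a glutathione transferase, had a GV level of 341 FPKM against 68.1 in MII, beside 91.7 for TubA-10 and 39.1 for TubA-20, a change of -2.31. *Prdx2*, a cytosolic peroxiredoxin, had 1379.7 FPKM at the GV stage and 588 at MII (TubA-10 772, TubA-20 647), a change of -1.23. Its paralog *Prdx1* had 983 FPKM in GV and 1277 in MII, with 1313 at 10 μM and 2210 at 20 μM TubA, a change of 0.38. *Gpx4*, which reduces lipid peroxides, had a GV level of 231 FPKM against 93.6 in MII, beside 102 for TubA-10 and 44.7 for TubA-20, a change of -1.30, opposite to *Gpx1*. *Txn1*, thioredoxin, had a change of -1.56, and *Txnrd1*, the reductase that recharges it, one of 0.88. Paralogs thus lay on opposite sides of GV among the peroxiredoxins and the glutathione peroxidases.

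Proteasome genes were lower in 29 of 39 cases and higher in 9, with 16 more than 2-fold lower (41.0%, against the same 20.8%), none higher past 2-fold (1 with equal FPKM sums or *Gapdh*), and a median of -0.60 (-0.93 over the 33 with at least 5 FPKM). *Psmb1*, a subunit of the 20S core, had 742 FPKM at the GV stage and 116 at MII (TubA-10 174, TubA-20 54.8), a change of -2.67. *Psma7*, the highest of the list in GV, had 1227 FPKM in GV and 931 in MII, with 976 at 10 μM and 1271 at 20 μM TubA, a change of -0.40. *Psmd1*, a scaffold of the 19S cap, had a GV level of 43.2 FPKM against 83.7 in MII, beside 71.2 for TubA-10 and 106 for TubA-20, a change of 0.94. Of 13 genes of the chaperonin CCT and of prefoldin, which fold actin and tubulin, 10 were lower and 3 higher, with a median of -0.76. Past 2-fold 3 were lower (23.1%, near the 20.8% of genes with at least 5 FPKM) and 0 higher. *Pfdn6* had 485 FPKM at the GV stage and 89.5 at MII (TubA-10 93.5, TubA-20 21.7), a change of -2.42, and *Pfdn4* had 1109 FPKM in GV and 1609 in MII, with 1539 at 10 μM and 1647 at 20 μM TubA, a change of 0.54. *Cct5* had a GV level of 492 FPKM against 245 in MII, beside 277 for TubA-10 and 236 for TubA-20, a change of -1.0. Splicing snRNP and Lsm genes were split, 10 of 23 higher and 13 lower, with a median of -0.02 that was positive under 3 of the 4 scalings. *Snrpc*, of the U1 particle, had 155 FPKM at the GV stage and 22 at MII (TubA-10 37.4, TubA-20 18), a change of -2.77, and *Snrpn* had 9.6 FPKM in GV and 21.4 in MII, with 22.2 at 10 μM and 36.4 at 20 μM TubA, a change of 1.08, though its locus overlaps *Snurf* on the same strand.

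**Figure D4:**
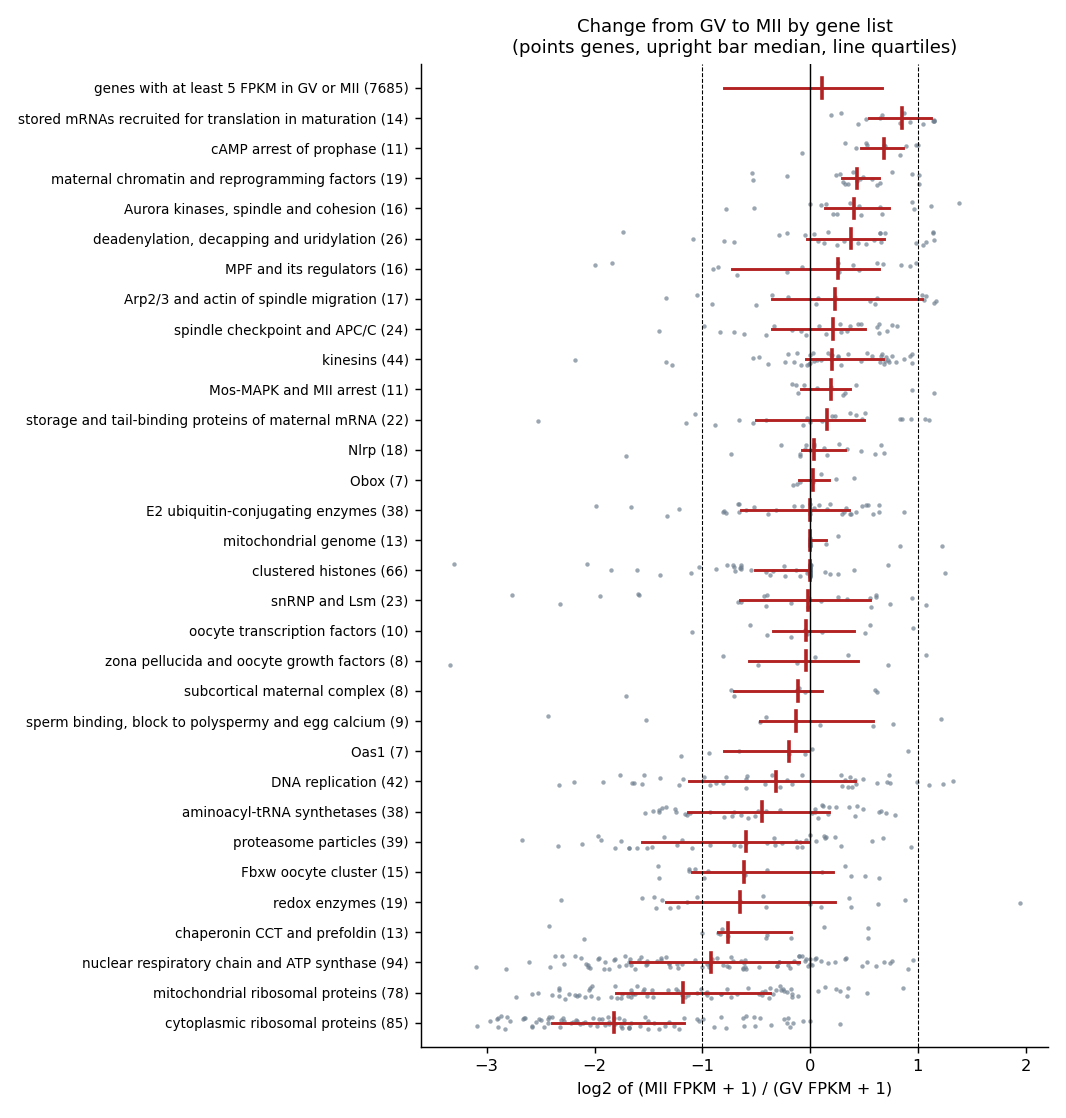
Change from GV to MII (log2 of FPKM + 1) of every gene in the 31 lists, ordered by median, with the list size in brackets, the upright bar at the median and the line over the quartiles. The top row is the 7685 genes with at least 5 FPKM (median 0.11), and the medians run from -1.82 for cytoplasmic ribosomal proteins to 0.85 for stored mRNAs.

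DNA replication genes, which the embryo needs after fertilisation, had 17 of 42 members higher and 25 lower, with a median of -0.31, 3 past 2-fold upward (7.14%) and 11 downward (26.2%), shares near the 8.26% and 20.8% of all genes with at least 5 FPKM. *Pold3*, a subunit of DNA polymerase delta, had a GV level of 114 FPKM against 286 in MII, beside 219.7 for TubA-10 and 300.2 for TubA-20, a change of 1.32. *Pola1*, the catalytic subunit of polymerase alpha, had 8.98 FPKM at the GV stage and 22.4 at MII (TubA-10 16.9, TubA-20 23.1), a change of 1.23. *Gins4*, of the GINS complex that joins the helicase, had 116 FPKM in GV and 22.3 in MII, with 28.2 at 10 μM and 11.6 at 20 μM TubA, a change of -2.33. *Rpa2*, which coats single-stranded DNA, had a GV level of 64.4 FPKM against 13.3 in MII, beside 23.7 for TubA-10 and 5.34 for TubA-20, a change of -2.19. The replicative helicase MCM2-7 is a ring of 6 different subunits, and its mRNAs did not move as a unit. *Mcm2* had 27.6 FPKM at the GV stage and 55.8 at MII (TubA-10 40.7, TubA-20 64.9), a change of 0.99. *Mcm4* had 36.8 FPKM in GV and 62.1 in MII, with 64.6 at 10 μM and 62.8 at 20 μM TubA, a change of 0.74. *Mcm7* had a GV level of 23.2 FPKM against 31.5 in MII, beside 33 for TubA-10 and 32.6 for TubA-20, a change of 0.43. Those 3 subunits were higher in every cultured library. *Mcm5* had 56.5 FPKM at the GV stage and 15.9 at MII (TubA-10 22.2, TubA-20 11.6), a change of -1.77. *Mcm6* had 57 FPKM in GV and 32 in MII, with 36.6 at 10 μM and 34.1 at 20 μM TubA, a change of -0.81, and *Mcm3* had a GV level of 27.1 FPKM against 23.3 in MII, beside 22.3 for TubA-10 and 19.2 for TubA-20, a change of -0.21. Those 3 were lower in every cultured library, though with equal *Gapdh* the MII level of *Mcm3* lies slightly above GV.

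The 3 higher MCM subunits held a CPE match in the last 100 bases and the 3 lower ones held none, in the last 100 bases or elsewhere in the 3′ UTR. This split was noticed after the values were seen, in 6 genes, and it is a description. It does not hold for *Mcm3* with equal *Gapdh*. The matches are printed so that they can be compared with those of the stored mRNAs.
*Mcm2*, chr6:88883484-88883513, minus strand: ttattTTTTAATagatttgAATAAAaccta
*Mcm4*, chr16:15623967-15623996, minus strand: tttcattaatTTTTATagatccttagatta
*Mcm7*, chr5:138164608-138164637, minus strand: gcacttTTTTATtctgccAATAAAgtgttt
Over the replication list, 17 of 38 genes with a 3′ UTR of 100 bases or more held a match (44.7%, against 21.1% of all 7172 searched genes). Of those 17, 10 were higher in MII and their median was 0.30, and of the 21 without a match 6 were higher and their median was -0.59. Of the 12 other lists with a match in at least 4 genes, the median with a match was the higher one in 4 and the lower one in 8. Among the E2 ubiquitin-conjugating enzymes 4 of 4 genes with a match were higher (median 0.47) against 12 of 26 without one (median -0.04), and among the chromatin and reprogramming factors 5 of 5 (0.47) against 9 of 11 (0.32). In the respiratory list none of 7 genes with a match was higher (median -1.72) against 14 of 59 without one (median -0.71), and among the synthetases 1 of 5 was higher against 7 of 16.

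The clustered histone genes, most of whose mRNAs end in a stem-loop without a poly(A) tail, had low values in these oligo(dT)-selected libraries. Of 66 genes 29 were listed at 0 in all libraries and 6 had at least 5 FPKM in GV or MII. In MII 26 were lower and 7 higher, 7 past 2-fold downward (10.6%, beside 8.34% of all genes) and 1 upward, and the median over the 6 genes was -1.05. The downward count was 3 among those 6 genes, and 16 and 17 of the 66 with a pseudocount of 0.1 and 0.01. *Hist1h2bc* was the highest, with 230.4 FPKM at the GV stage and 254 at MII (TubA-10 250.4, TubA-20 138), a change of 0.14. *Hist1h1a*, a linker histone gene, had 29.5 FPKM in GV and 71.5 in MII, with 42.3 at 10 μM and 49.3 at 20 μM TubA, a change of 1.25. Of the 13 protein-coding genes of the mitochondrial genome 8 were listed at 0 in all 4 libraries and none reached 5 FPKM in GV or MII, although mitochondrial mRNAs are abundant in oocytes, so their values are not read as levels. *mt-Nd2*, the highest of them in GV, was listed at 1.27 FPKM in GV and 3.06 in MII.

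Across genes the change went with the length of the transcript. The 7172 genes with at least 5 FPKM and a 3′ UTR of at least 100 bases were cut into quintiles by length of the principal transcript. The median change was -0.61 in the shortest quintile (median length 1186 bases), -0.14 in the second, 0.14 in the third, 0.37 in the fourth and 0.66 in the longest (median length 6327 bases). In the shortest quintile 38.3% of genes were more than 2-fold lower and 2.51% higher, and in the longest 5.78% were lower and 19.8% higher. Several lists with many lower genes had short transcripts. Among these genes the median length was 863 bases for the respiratory list and 1133.5 for cytoplasmic ribosomal proteins. It was 1339 bases for mitochondrial ribosomal proteins, 1540.5 for the proteasome and 1612 for redox enzymes. The part of length in the shares of these lists was not tested. The median transcript was 4452 bases long among the 616 genes more than 2-fold higher, 2984 among the 5212 within 2-fold and 1842.5 among the 1344 more than 2-fold lower. The coding part and the 3′ UTR gave the same order, with medians from -0.33 to 0.61 over quintiles of coding length and from -0.48 to 0.49 over quintiles of 3′ UTR length. Without the ribosomal, respiratory chain and proteasome genes, which are mostly short, the shortest quintile still had a median of -0.55. TubA-10 against GV, which shares the GV library, had medians from -0.24 to 0.43 over the same quintiles, and TubA-20 against GV from -0.80 to 0.78. By GC content of the transcript the median change was 0.58 in the lowest quintile and -0.52 in the highest. The parts of length and of GC content were not separated.

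A CPE match near the 3′ end was more frequent among higher than among lower genes. It was found in 31.8% of the 616 genes more than 2-fold higher (exact 95% binomial interval 28.2% to 35.7%), in 22.4% of the 5212 within 2-fold (21.3% to 23.5%) and in 11.0% of the 1344 more than 2-fold lower (9.39% to 12.8%), intervals that cover the number of genes and no error of the libraries. The 1511 genes with a match had a median change of 0.52 and the 5661 without one 0.03. In TubA-10 against GV the medians were 0.36 with a match and 0.11 without, and in TubA-20 against GV 0.72 and 0.06. A single match went with a median of 0.52, 2 matches with 0.50 and 3 or more, in 27 genes, with 0.83. A match to a poly(A) signal (AATAAA or ATTAAA in the last 40 bases) was found in 83.4% of higher genes, 79.3% of those within 2-fold and 67.9% of lower ones.

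The difference was read again within strata of length and of base composition. Within quintiles of length, genes with a match had a median of 0.13 against -0.75 without in the shortest quintile, 0.40 against -0.28, 0.51 against 0.01 and 0.60 against 0.29 in the 3 between, and 0.75 against 0.63 in the longest. Within quintiles of the A and T content of the last 100 bases the medians were -0.08 against -0.67, 0.05 against -0.21, 0.47 against 0.16, 0.48 against 0.34 and 0.68 against 0.54. Within quintiles of the GC content of the whole transcript the medians with and without a match differed by 0.09 in the lowest quintile and 0.83 in the highest. Genes with a match were thus higher in every stratum of the 3 measures, by 0.09 to 0.88. The 6 arrangements of 5 T and 1 A were compared in genes that held only 1 of them. The median was 0.45 for TTTTAT, 0.44 for TTTTTA, 0.33 for TATTTT, 0.29 for ATTTTT, 0.06 for TTATTT and -0.07 for TTTATT, against -0.11 for genes with none of the 6. TTTTAT and TTTTTA, which is not counted as a CPE, were close together, and over all genes that held them, alone or with others, TTTTTA was the higher one (0.52 against 0.50). In 142 of the 1511 genes every match overlapped a poly(A) signal, and their median of 0.46 was close to the 0.52 of the others.

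**Figure D5:**
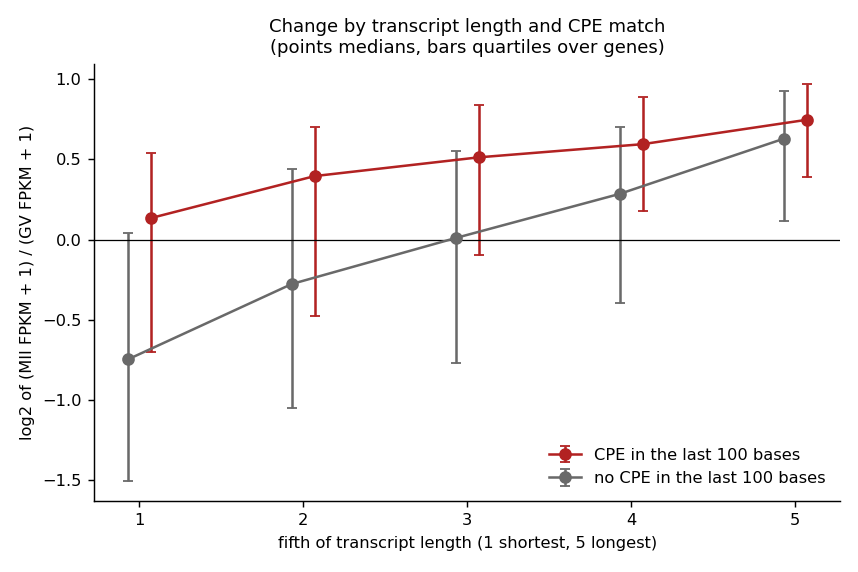
Median change from GV to MII (log2 of FPKM + 1) by quintile of transcript length, for genes with and without a CPE match in the last 100 bases of the 3′ UTR, with bars over the quartiles of genes. The difference between the lines is 0.88 in the shortest quintile and 0.12 in the longest.

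Over all 7172 genes 21.1% held a match. Of the 10 largest increases 8 had a 3′ UTR long enough to search, and of these *Gtf2a1* held a CPE match in the last 100 bases. Of the 10 largest decreases 6 could be searched, and *Ppil3* and *Emg1* held one. Their windows are shown beside that of the increase.
*Gtf2a1*, chr12:91555262-91555291, minus strand: atAATAAAgataTTTTATttattgccagca
*Ppil3*, chr1:58430994-58431023, minus strand: agaaagccatgcctttttttTTTTATcaca
*Emg1*, chr6:124704381-124704410, minus strand: ttttcctataaagagTTTTATttcgttttt
The match started 18 bases from the annotated 3′ end in *Gtf2a1*, 10 in *Ppil3* and 15 in *Emg1*. The 3′ ends are those of the annotation, and the ends used in these oocytes were not measured.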

How the data were processed

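The authors sequenced RNA of the 4 conditions in 1 library each with a strand-specific kit. The deposited values are FPKM from cufflinks on mm10, already divided by transcript length and mapped fragments. The submitters' processing notes name STAR 2.5.0, Cufflinks and Cuffdiff 2.2.1. The labels and the methods differ on the RNA kit, and the gene model is called a UCSC one, although identifiers in the table are from Ensembl. Of 21959 entries, 21794 matched GENCODE M21 (GRCm38) by identifier, 165 kept their identifier, and entries of 1 symbol were added up, which left 21957 genes.

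The log2 change adds 1 FPKM to either side, which understates it for low genes, and it was called past 2-fold, with no filter on low values and no test. Read counts are not used here, so values have no counting interval. The members and the 31 gene lists were chosen with earlier results of these data known. Genes were named if among the 10 largest rises or falls with at least 10 FPKM, the 10 highest in GV or MII, the extremes or highest of a list, a member of a short list, or a marker. The 6 *Mcm2-7* genes were named after their values were seen. Transcript lengths and 3′ UTR elements came from the APPRIS principal transcript. Scripts were tested on simulated data and ran in Python 3.11.15 (numpy 2.4.6, pandas 2.3.3), with scipy 1.17.1 for intervals and matplotlib 3.10.9 for plots.

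Alternatives were an added 0.1 or 0.01 in place of 1, a minimum of 1 or 5 FPKM, 4 scalings, the highest entry of a symbol, a 3-fold threshold, the longest coding transcript and the whole 3′ UTR. Those within quintiles of length or of A and T content, the 6 letter arrangements, and the runs without ribosomal, respiratory chain and proteasome genes were chosen after seeing the data.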

Additional observations from a re-analysis of the deposited data

How the results depend on the processing

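No paired analysis was possible because each condition has 1 library. For the same reason no replicate could be left out, and the values cannot be set against the spread between oocyte pools. The counts past 2-fold moved with the added FPKM, the threshold and the scaling. There were 1488 higher and 3128 lower genes with a pseudocount of 0.1 (32.2% higher among those past 2-fold), and 2492 and 4015 with 0.01 (38.3%), against 669 and 1832 (26.7%). A 3-fold threshold left 33 and 774 (4.09% higher). With the median change set to 0 the higher share was 18.2%, with equal upper quartiles 33.9%, with equal FPKM sums 41.0% (1125 higher genes) and with equal *Gapdh* 51.0% (1525 higher genes), since these scalings shift all genes together. With the median change set to 0 the count of higher genes was 3 for decay factors and 2 for Arp2/3 and actin (5 and 5 as reported), that of lower *Fbxw* genes was 2 with equal FPKM sums or *Gapdh* (5 as reported), and that of stored mRNAs was 8 with equal *Gapdh* (5 as reported). Searching the whole 3′ UTR raised the CPE shares to 86.2% of higher genes, 66.8% of those within 2-fold and 34.9% of lower ones, since longer sequence is searched. The counts of lower genes in the ribosomal, mitochondrial ribosomal, respiratory and redox lists stayed within 1.5 times under every alternative run on them. Of 331 named genes, 9 turned sign with the median change set to 0, 15 with equal FPKM sums, 6 with equal upper quartiles and 25 with equal *Gapdh*, and 9, 6, 3 and 10 fell short of 2-fold that had passed it while 2, 18, 10 and 28 newly passed it, in the same order. Of the 31 list medians 2, 4, 3 and 6 turned under these scalings.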

Other observations

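Oocyte gene families that lie in clusters of related copies were described by symbol, and reads shared among close copies make single values uncertain. Of 15 genes of the *Fbxw* oocyte cluster, F-box proteins of oocytes, 10 were lower in MII and 5 higher, 5 of them more than 2-fold lower (33.3%, against 20.8% of genes with at least 5 FPKM), with a median of -0.61. That count was 2 with equal FPKM sums or equal *Gapdh*. *Fbxw17* had a GV level of 15.1 FPKM against 5.05 in MII, beside 8.02 for TubA-10 and 2.49 for TubA-20, a change of -1.41. *Fbxw24*, the highest in GV, had 1650.3 FPKM at the GV stage and 2142 at MII (TubA-10 3056, TubA-20 1723), a change of 0.38, and *Fbxw22* had 217 FPKM in GV and 338 in MII, with 311 at 10 μM and 447 at 20 μM TubA, a change of 0.64. Of 7 *Oas1* genes 5 were lower and 2 higher, with a median of -0.19 that turned positive with equal *Gapdh*. *Oas1h* had a GV level of 669.5 FPKM against 290.4 in MII, beside 464 for TubA-10 and 288 for TubA-20, a change of -1.20, and *Oas1d* had 465 FPKM at the GV stage and 873 at MII (TubA-10 687, TubA-20 975), a change of 0.91. Of 18 *Nlrp* genes 10 were higher and 7 lower (median 0.04), and of 7 *Obox* homeobox genes 4 were higher and 3 lower (median 0.03), and both medians turned negative with the median change set to 0. *Nlrp14*, the highest of its family in GV, had 1273 FPKM in GV and 1535 in MII, with 1523 at 10 μM and 939 at 20 μM TubA, a change of 0.27. *Obox5* had a GV level of 524 FPKM against 694 in MII, beside 544 for TubA-10 and 941 for TubA-20, a change of 0.41.

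Kinesins, the motors that move along spindle microtubules, were higher in 29 of 44 cases and lower in 13, with a median of 0.20 (0.65 over the 24 with at least 5 FPKM in GV or MII) and 3 more than 2-fold lower (6.82%, beside 8.34% of all genes and 20.8% of those with at least 5 FPKM). None was more than 2-fold higher, a count of 5 with a pseudocount of 0.1 or equal *Gapdh* and of 7 with a pseudocount of 0.01. The count of lower kinesins was 5 with a pseudocount of 0.01. *Kif22*, a chromosome-arm motor, had 347 FPKM at the GV stage and 75.6 at MII (TubA-10 74.3, TubA-20 61.3), a change of -2.18. *Kif20b*, a motor of cytokinesis, had 30.1 FPKM in GV and 59 in MII, with 41.5 at 10 μM and 48.8 at 20 μM TubA, a change of 0.95. The E2 ubiquitin-conjugating enzymes had 17 higher and 17 lower genes of 38, with a median of 0.00 and 4 more than 2-fold lower (10.5%, beside the same shares). *Ube2q1* had a GV level of 14.6 FPKM against 2.94 in MII, beside 4.04 for TubA-10 and 2.45 for TubA-20, a change of -1.98. *Ube2d3*, the highest of the list in GV, had 1078 FPKM at the GV stage and 676 at MII (TubA-10 748, TubA-20 754), a change of -0.67.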
